A study of Mus musculus with 12 samples.

Results

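The matrix metalloproteinase genes (Mmp), the ADAMTS protease genes (Adamts), the ADAMTS-like genes (Adamtsl) and the genes of their tissue inhibitors (Timp) were described across 4 mouse arteries. The members were all genes of the array annotation whose symbol is Mmp, Timp, Adamts or Adamtsl followed by a number and an optional letter, measured by a probe set with 1 gene symbol. This gave 49 of the 19938 genes tested, namely 22 Mmp, 18 Adamts, 5 Adamtsl and 4 Timp genes. Each of 12 Affymetrix arrays was hybridised with RNA from the ascending aorta, the coronary artery, the descending aorta or the superior mesenteric artery (an abdominal branch that feeds the gut), with 3 biological replicates per vessel. All mice were untreated C57BL/6 wild-type animals aged 8 weeks, and the stated aim of the series was to find expression profiles tied to embryonic origin. The labels do not say whether a replicate came from 1 mouse or a pool, so the p-values refer to the spread between replicates as labelled.

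Matrix metalloproteinases are zinc enzymes that cut collagens, gelatin, elastin and other matrix proteins, and most are made as inactive precursors. ADAMTS proteases share the zinc-dependent catalytic site and cut proteoglycans, procollagens and von Willebrand factor, whereas ADAMTS-like proteins lack the protease domain. Tissue inhibitors of metalloproteinases bind the catalytic site, and the balance of enzyme and inhibitor is studied in arterial remodelling and aneurysm.

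Values are on the log2 scale, so a difference of 1 is a doubling. Levels are given as means ± SD and differences ± SE over n = 3 arrays in each vessel, a number that limits their precision. A gene passed when its limma p-value, adjusted over all 19938 genes within a comparison by the Benjamini-Hochberg method, was under 0.05. Probe sets bind their targets with different strength, so a gene is compared across vessels and not with other genes. Array medians over all genes lay between 4.04 and 4.18. Marker lists of cell types differed between arrays. The cardiomyocyte list averaged 9.98 to 10.27 in the coronary artery arrays and 4.08 to 5.50 in the other arrays. The smooth muscle list, which marks the vessel wall itself, averaged 6.94 to 9.21 in ascending aorta, 5.07 to 5.57 in coronary artery, 7.62 to 7.97 in descending aorta and 6.29 to 9.47 in superior mesenteric artery. Ascending aorta replicate 1 stood apart within its vessel, with a B cell list mean of 8.31, against 4.30 and 4.60 in replicates 2 and 3. Its fibroblast list mean was 6.01, against 8.51 and 8.35. Lymphocyte lists were not high in that array alone. In superior mesenteric artery replicates 1, 2 and 3 the B cell list averaged 5.29, 7.55 and 7.16, and the T cell list 4.90, 6.40 and 6.50. The pancreatic acinar list averaged 9.73 in superior mesenteric artery replicate 3, against 5.47 and 3.65 in replicates 1 and 2. In whole-tissue RNA, fewer cells of a type and less RNA per cell cannot be told apart.

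Timp4, the gene of tissue inhibitor 4, was the member that differed among the vessels, with its lowest level in the superior mesenteric artery. The protease genes did not pass. In limma's moderated F test among the 4 vessels, 1 of 49 members passed, beside 4.72% of all genes tested. At an unadjusted p under 0.05 the F test held 4 of 49 members, beside 16.4% of all genes. The adjusted p of the other 48 members was at least 0.168. Over the 49 members, the range among the 4 vessel means had a median of 0.40 and reached 1.59 in Timp4. That range was under 0.5 in 29 members and over 1 in 6, Mmp3, Mmp19, Adamtsl1, Adamtsl3, Timp1 and Timp4.

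Timp4 was at 4.73, 5.33 and 5.48 in the ascending aorta arrays, 5.70, 5.47 and 5.94 in the coronary artery arrays, 5.55, 5.98 and 5.32 in the descending aorta arrays and 4.26, 3.70 and 4.37 in the superior mesenteric artery arrays. All 3 superior mesenteric artery arrays lay below all 9 arrays of the other vessels, while the other vessels overlapped. Its protein is an inhibitor best known from heart and adipose tissue. Coronary artery averaged 5.70 ± 0.24 and superior mesenteric artery 4.11 ± 0.36, a difference of 1.59 ± 0.26, or 3.01-fold (limma adjusted p = 0.00422). Descending aorta averaged 5.61 ± 0.33, higher than superior mesenteric artery by 1.50 ± 0.26, or 2.83-fold (limma adjusted p = 0.00766). Without descending aorta replicate 2 this difference was 1.32 and did not pass (limma adjusted p = 0.0554). Ascending aorta averaged 5.18 ± 0.40, and its difference of 1.07 ± 0.26 from superior mesenteric artery did not pass (limma adjusted p = 0.183). Without ascending aorta replicate 1 that difference was 1.29 and passed (limma adjusted p = 0.0143). Over all alternatives its limma adjusted p lay between 0.0143 and 0.820. Among the other 3 vessels no pair passed for Timp4: ascending minus descending aorta was -0.43 ± 0.26, ascending aorta minus coronary artery -0.52 ± 0.26 and coronary artery minus descending aorta 0.09 ± 0.26.

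The 200 bases before the annotated start of Timp4 are shown because it is the member that passed; they lie at chr6:115252206-115252405 on the minus strand of GRCm38.p6 and are RefSeq sequence. The motifs TGANTCA (the AP-1 consensus) and TATAAA were searched on both strands from 250 bases before to 50 bases after the start, and neither was found, so no letter is in capitals.
Timp4: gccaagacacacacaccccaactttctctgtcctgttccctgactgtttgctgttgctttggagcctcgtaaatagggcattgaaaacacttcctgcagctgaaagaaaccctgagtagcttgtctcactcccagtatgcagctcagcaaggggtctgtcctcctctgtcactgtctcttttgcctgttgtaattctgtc

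**Figure D1:**
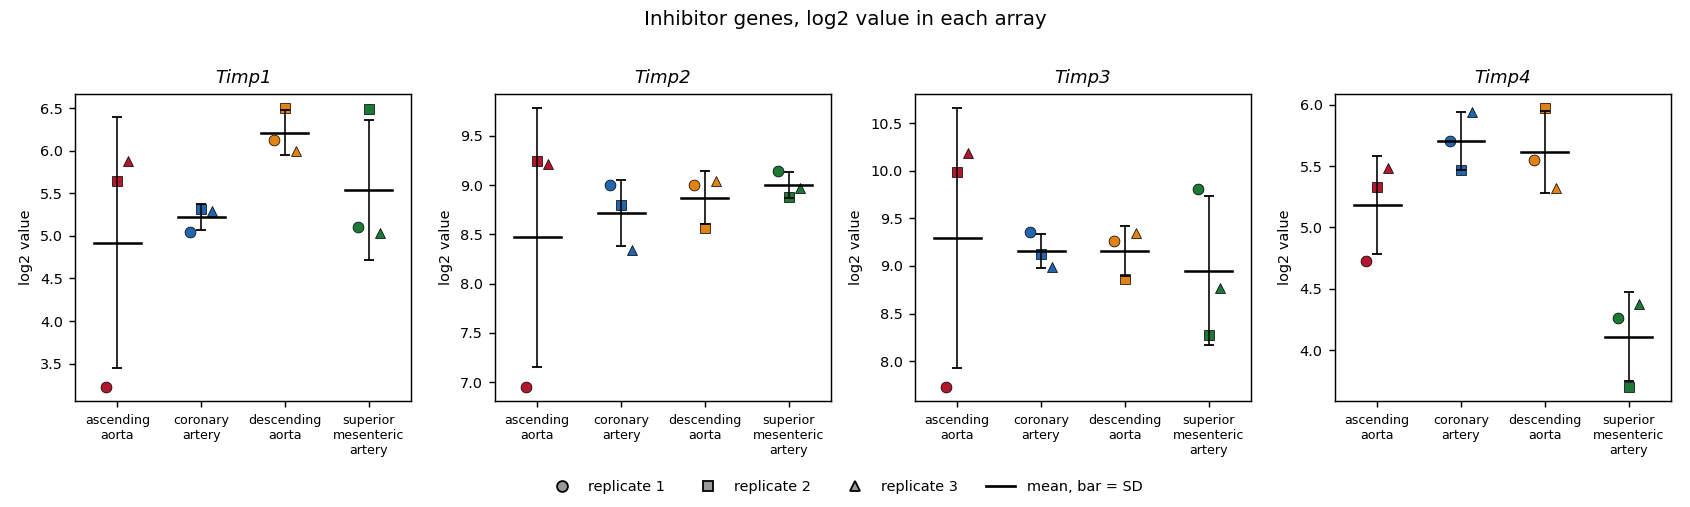
Log2 value (y axis) of the 4 inhibitor genes in each array, by vessel (x axis); symbols mark the replicate number, lines the mean and bars the SD (n = 3). The 3 superior mesenteric artery arrays are the lowest for Timp4, at 3.70 to 4.37, and ascending aorta replicate 1 is the lowest array for Timp1, Timp2 and Timp3.

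Marker lists of fat and heart muscle are given beside Timp4. The brown adipocyte list, with 5 of 6 genes measured, averaged 8.29 to 9.71 in the ascending aorta arrays, 6.87 to 7.46 in coronary artery, 9.61 to 10.05 in descending aorta and 4.56 to 5.98 in superior mesenteric artery. Like Timp4, that list was lowest in the superior mesenteric artery arrays; its part in the Timp4 result was not tested. All 5 of its measured genes were higher in every array of the ascending aorta, and of the descending aorta, than in every superior mesenteric artery array. Between coronary artery and superior mesenteric artery, 3 of the 5 did not overlap, with Cidea, Cox7a1 and Cox8b higher in coronary artery, and the other 2, Ucp1 and Dio2, overlapped. In coronary artery the list did not move as a unit. Every coronary artery array lay above every ascending aorta array for Cox7a1 and Cox8b, and below it for Ucp1, Cidea and Dio2. The list mean in coronary artery is therefore not read as a level of fat. The general adipocyte list, with 5 of 6 genes measured, averaged 6.87 to 8.70 in ascending aorta, 6.21 to 6.65 in coronary artery, 8.39 to 9.08 in descending aorta and 6.76 to 7.32 in superior mesenteric artery. Against superior mesenteric artery, all 5 were higher in every descending aorta array, and Plin1 and Fabp4 in every ascending aorta array. Unlike Timp4, none was higher in every coronary artery array. There Adipoq and Plin1 were lower and the other 3 overlapped. The part of this list was not tested. The cardiomyocyte list, with 8 of 8 genes measured, averaged 4.08 to 4.22 in ascending aorta, 9.98 to 10.27 in coronary artery, 4.23 to 5.50 in descending aorta and 4.54 to 5.39 in superior mesenteric artery, and its part was not tested either.

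**Figure D2:**
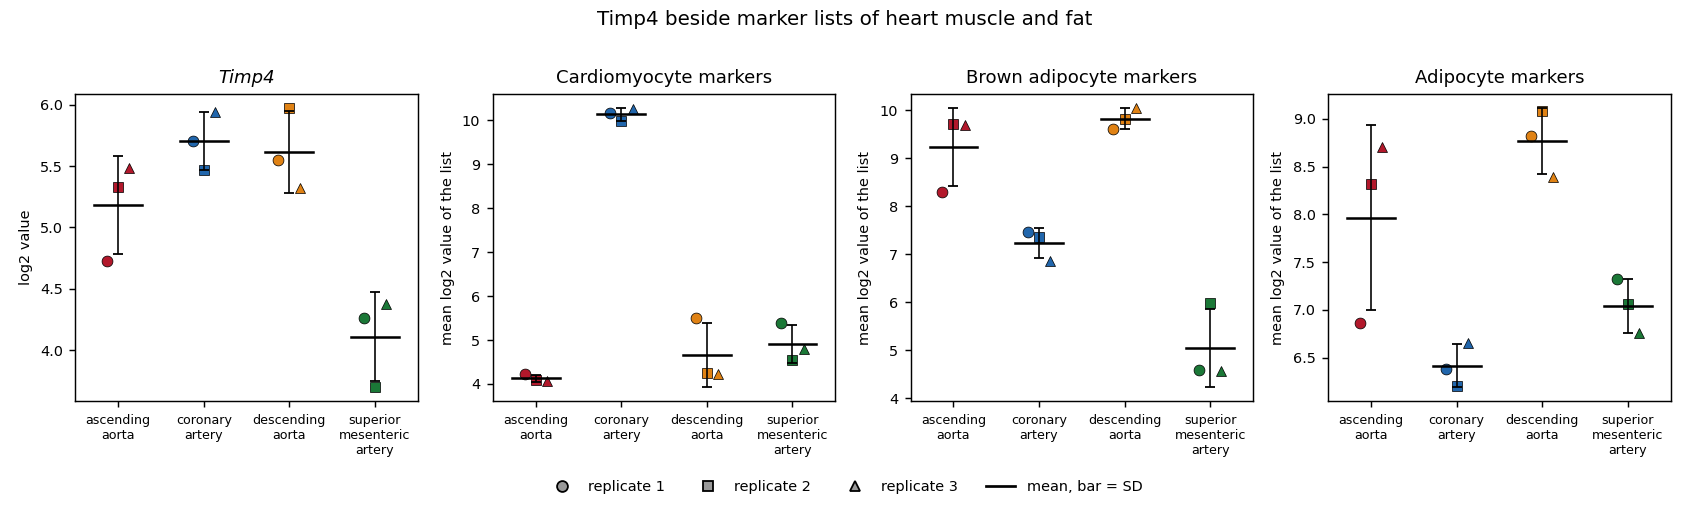
Log2 value of Timp4 and mean log2 value of the cardiomyocyte, brown adipocyte and adipocyte marker lists (y axes) in each array, by vessel (x axis); symbols mark the replicate number, lines the mean and bars the SD (n = 3). The brown adipocyte list is lowest in superior mesenteric artery (4.56 to 5.98), as Timp4 is, while the cardiomyocyte list stands out in coronary artery (9.98 to 10.27).

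The other 3 inhibitors did not pass in the F test or in any pair. Timp3, whose protein binds to the matrix and also inhibits ADAMTS proteases, was at 7.73, 9.98 and 10.18 in the ascending aorta arrays and averaged 9.16 ± 0.18 in coronary artery, 9.16 ± 0.26 in descending aorta and 8.95 ± 0.78 in superior mesenteric artery. Timp2, whose protein takes part in the activation of the Mmp2 precursor, was at 6.95, 9.25 and 9.21 in the ascending aorta arrays and averaged 8.72 ± 0.34 in coronary artery, 8.87 ± 0.26 in descending aorta and 9.0 ± 0.13 in superior mesenteric artery. For both genes the spread between ascending aorta replicates was wider than the differences between vessel means. Timp1, a broadly induced inhibitor, was at 3.22, 5.65 and 5.88 in the ascending aorta arrays, 5.04, 5.32 and 5.30 in coronary artery, 6.13, 6.51 and 6.00 in descending aorta and 5.10, 6.49 and 5.03 in superior mesenteric artery. All coronary artery arrays lay below all descending aorta arrays for Timp1, a difference of -0.99, with a limma adjusted p of 0.555 over the 12 arrays and 0.0104 when the 6 arrays of the pair were fitted alone. Ascending minus descending aorta was -1.29 for Timp1 with all arrays (limma adjusted p = 0.509) and -0.44 without ascending aorta replicate 1 (limma adjusted p = 0.876).

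Ascending aorta replicate 1 also stood apart among the members. Its value lay below those of replicates 2 and 3 in 32 of 49 members, beside 39.3% of all genes, and above them in 10 of 49 members, beside 37.8% of all genes. It was lower than the mean of replicates 2 and 3 by more than 1 in 12 members and higher by more than 1 in 0, against 7.86% and 6.59% of all genes. The 12 members were Timp1, Timp2, Timp3, Mmp2, Mmp3, Mmp9, Mmp19, Mmp23, Adamts1, Adamts5, Adamtsl1 and Adamtsl3. Timp1 was lower by 2.54 on the log2 scale, Mmp3 by 2.49 and Mmp2, the gene of gelatinase A, by 2.39. In the same array the fibroblast list was lower and the B cell list higher, as given above. The smooth muscle list averaged 6.94 there, against 9.12 and 9.21 in replicates 2 and 3, the mesothelial list 3.87, against 5.56 and 6.34, and the T cell list 7.95, against 3.82 and 4.90. The part of these lists in the members' values was not tested.

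**Figure D3:**
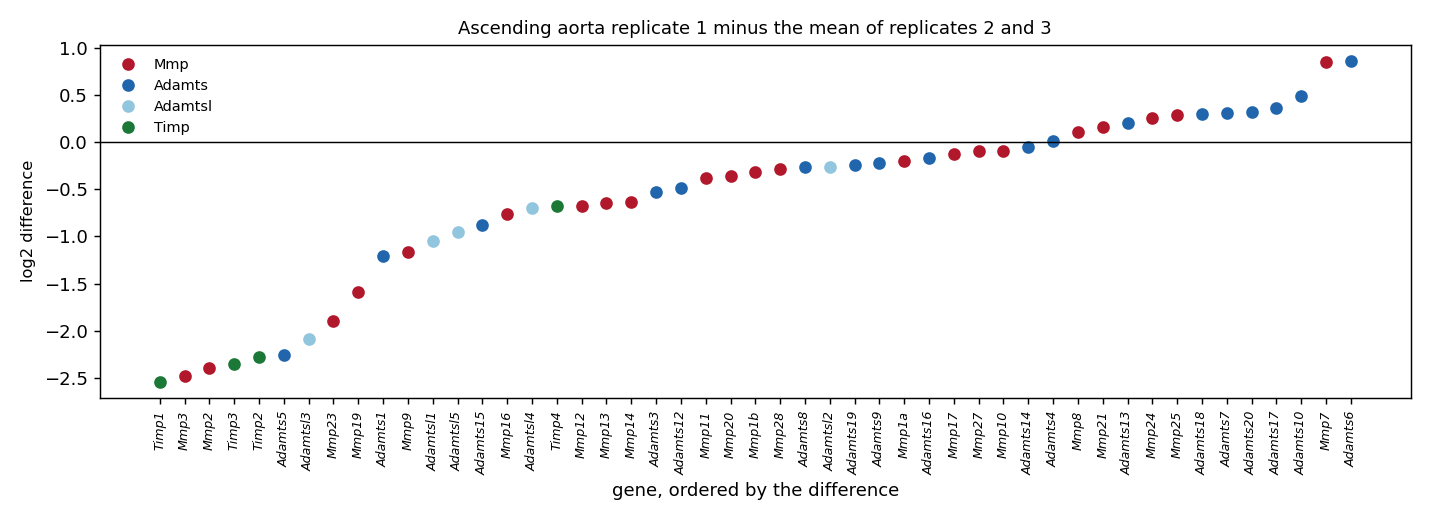
Log2 value in ascending aorta replicate 1 minus the mean of replicates 2 and 3 (y axis) for each of the 49 genes, ordered by that difference (x axis) and coloured by family. Timp1, Mmp3, Mmp2, Timp3, Timp2, Adamts5 and Adamtsl3 lie below -2, and no gene lies above 1.

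**Figure D4:**
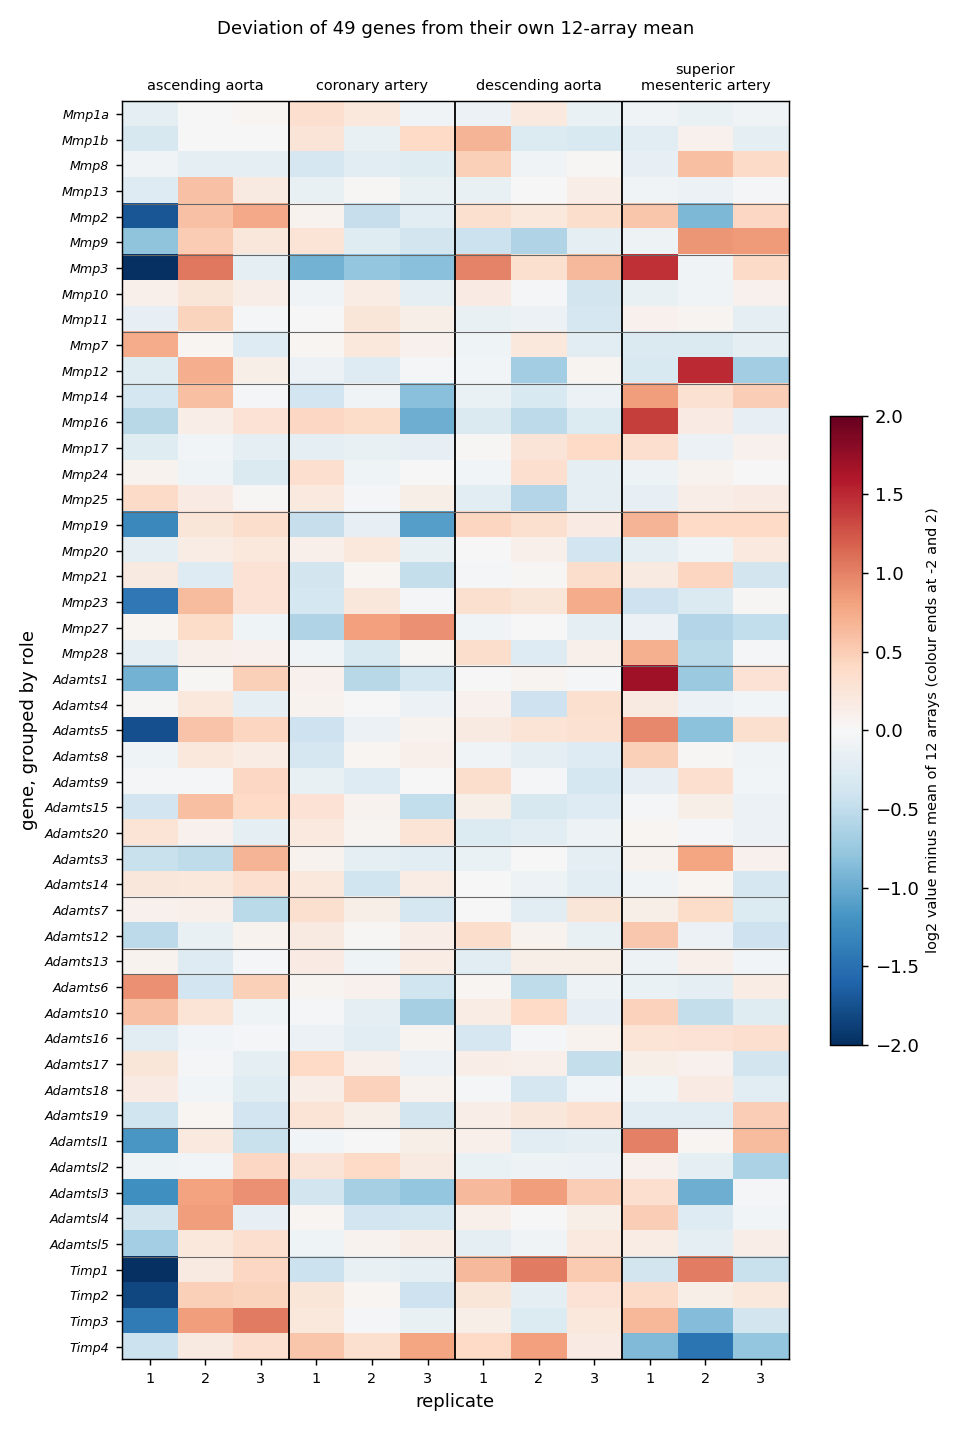
Log2 value minus the gene's own mean over 12 arrays (colour, from -2 in blue to 2 in red) for the 49 genes (rows, grouped by role) in each array (columns, by vessel and replicate). The darkest blue cells are in ascending aorta replicate 1, and Timp4 is blue in all 3 superior mesenteric artery arrays.

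By pair of vessels, limma passed 0 of 49 members in ascending minus descending aorta (3 at an unadjusted p under 0.05, beside 9.64% of all genes), where 0% of all genes passed as higher and 0.015% as lower. It passed 0 members in ascending aorta minus coronary artery (0 at an unadjusted p under 0.05, beside 14.8% of all genes), beside 0.602% of genes higher and 1.87% lower. It passed 0 members in ascending aorta minus superior mesenteric artery (3 at an unadjusted p under 0.05, beside 7.22% of all genes), beside 0.135% higher and 0.0401% lower. It passed 0 members in coronary artery minus descending aorta (6 at an unadjusted p under 0.05, beside 12.7% of all genes), beside 1.53% higher and 1.61% lower. In coronary artery minus superior mesenteric artery 1 member, Timp4, was higher, beside 2.71% of genes, and 0 were lower, beside 0.527% (8 members in either direction at an unadjusted p under 0.05, beside 14.8% of all genes). In descending aorta minus superior mesenteric artery 1 member, Timp4 again, was higher, beside 2.84% of genes, and 0 were lower, beside 0.361% (4 members in either direction at an unadjusted p under 0.05, beside 13.9% of all genes). The last 2 comparisons share the superior mesenteric artery arrays. The median difference over the members lay between -0.03 and 0.03 in the 6 pairs, and over all genes between -0.02 and 0.00. Single arrays moved these counts and those over all genes. Without ascending aorta replicate 1, limma passed 4 members in the F test, beside 9.15% of all genes. In the same fit it passed 1 member in ascending aorta minus coronary artery (3.85% of all genes in either direction), 1 in ascending aorta minus superior mesenteric artery (3.15%), 3 in coronary artery minus descending aorta (5.30%) and 4 in coronary artery minus superior mesenteric artery (6.48%). Without coronary artery replicate 1 it passed 2 members in the F test (3.19%), 1 in coronary artery minus descending aorta (2.02%) and 2 in coronary artery minus superior mesenteric artery (2.20%). Without ascending aorta replicate 2 it passed 2 in coronary artery minus superior mesenteric artery (3.23%), and without descending aorta replicate 2 it passed 0 in descending aorta minus superior mesenteric artery (1.09%).

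Members in which a single vessel lay apart from all others were counted beside the share of all genes. No trait of the family is read from the counts. All arrays of a vessel lay above all 9 others for Adamts14 in ascending aorta (0.391% of all genes), for 0 members in coronary artery (3.49%), for 0 in descending aorta (2.52%) and for Adamts16 in superior mesenteric artery (0.752%). They lay below all 9 others for 0 members in ascending aorta (0.562%), for Mmp8 in coronary artery (1.83%), for Mmp25 in descending aorta (0.772%) and for Timp4 in superior mesenteric artery (1.31%). For Adamts14 the vessels nearly met, at 3.602 in the lowest ascending aorta array and 3.597 in the highest coronary artery array (limma F test adjusted p = 0.564). Adamts16, an ADAMTS protease gene, was at 3.07, 3.38 and 3.48 in the descending aorta arrays and at 3.68, 3.71 and 3.74 in the superior mesenteric artery arrays, a difference of -0.40 ± 0.16 (limma adjusted p = 0.281). Mmp8, the neutrophil collagenase gene, was at 2.50, 2.63 and 2.60 in the coronary artery arrays and 2.77, 2.64 and 2.67 in ascending aorta, which nearly met. The superior mesenteric artery arrays were at 2.67, 3.45 and 3.22 for Mmp8, and coronary minus superior mesenteric artery was -0.54 ± 0.22 (limma adjusted p = 0.257). The neutrophil list, with 6 of 6 genes measured, averaged 4.11 to 4.46 in coronary artery and 4.18, 5.53 and 6.10 in the superior mesenteric artery arrays, in order of replicate. Between these vessels Cxcr2 was lower in every coronary artery array, Ly6g was higher and the other 4 genes overlapped. The part of this list was not tested. Mmp25, a leukocyte membrane-type protease gene, averaged 2.96 ± 0.18 in ascending aorta and 2.44 ± 0.22 in descending aorta, a difference of 0.52 ± 0.18 (limma adjusted p = 0.425).

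Pairs of vessels were also set side by side by whether their arrays overlapped. All ascending aorta arrays lay above all descending aorta arrays in 3 members, Adamts14, Adamtsl2 and Mmp25, beside 6.09% of all genes, and below them in 4, Timp1, Mmp8, Mmp17 and Adamts19, beside 9.62%. They lay above all coronary artery arrays in 2 members, Adamts14 and Mmp8, beside 8.3% of genes, and below them in 0, beside 11%. They lay above all superior mesenteric artery arrays in 4 members, Timp4, Mmp10, Mmp27 and Adamts14, beside 4.73% of genes, and below them in 2, Mmp19 and Adamts16, beside 4.62%. All coronary artery arrays lay below all descending aorta arrays in 9 of 49 members, beside 12.5% of all genes: Timp1, Mmp2, Mmp3, Mmp8, Mmp17, Mmp19, Mmp23, Adamts5 and Adamtsl3. They lay above them in 5, beside 9.88%: Mmp11, Mmp25, Adamts18, Adamts20 and Adamtsl2. Against superior mesenteric artery, all coronary artery arrays lay below in 6 members, beside 11.1% of genes, and above in 5, beside 11.3%, namely Timp4, Mmp1a, Mmp7, Adamts20 and Adamtsl2. All descending aorta arrays lay below all superior mesenteric artery arrays in 6 members, beside 10.4% of genes, and above in 3, Timp4, Mmp23 and Adamtsl3, beside 12.5%. Nothing particular to the family is read from these counts. Mmp1a, Mmp8, Mmp25, Adamts18 and Adamts20 averaged no more than 3.12 over the 12 arrays, where signal above background is not known.

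Mmp3, the gene of stromelysin-1, which cuts proteoglycans and activates other metalloproteinase precursors, was at 4.74, 4.91 and 4.85 in the coronary artery arrays and 6.68, 6.01 and 6.33 in the descending aorta arrays. The ascending aorta arrays were at 3.63, 6.74 and 5.49 and the superior mesenteric artery arrays at 7.14, 5.61 and 6.07. The coronary artery arrays were close together and below every array of the descending aorta and superior mesenteric artery. Coronary artery minus descending aorta was -1.51 ± 0.60 (limma adjusted p = 0.295), and coronary minus superior mesenteric artery was -1.44 ± 0.60 (limma adjusted p = 0.286). Without ascending aorta replicate 1 both passed, with limma adjusted p-values of 0.0318 and 0.0369. With the 6 arrays of the pair alone, the limma adjusted p against descending aorta was 0.000848.

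Mmp3 lies on chromosome 9 in a run of 10 neighbouring Mmp genes, in the order Mmp13, Mmp12, Mmp1b, Mmp3, Mmp1a, Mmp10, Mmp8, Mmp27, Mmp20 and Mmp7, with no other protein-coding gene of the GRCm38.p6 RefSeq table between them. The other 9 averaged between 1.63 and 3.37 over the 12 arrays, and the intestinal epithelium list, taken as a list that an artery should lack, averaged 2.91 to 3.12; whether signals in this range lie above background is not known. In all, 9 of 49 members averaged no more than 3.12. They were Mmp1a, Mmp1b, Mmp8, Mmp13, Mmp20, Mmp25, Adamts6, Adamts18 and Adamts20. Single genes of the intestinal epithelium list lay on both sides of 3.12, from Fabp2 at 1.72 to 2.64 to Cdx1 at 3.75 to 4.40. The count is therefore not a limit of detection, and members above 3.12 may also lie at background. Starts of this run share sequence motifs that the choice of members did not use. Promoter windows were found for 34 of 49 members. TGANTCA and TATAAA both occurred in 8 of 10 genes of the run, beside 1.84% of 27025 genes with a window; among the other 24 members TGANTCA occurred in 0 and TATAAA in 3. Over all genes the shares were 8.97% for TGANTCA and 15.7% for TATAAA. The 90 bases before the start are shown for Mmp3 and 3 of its neighbours, at chr9:7445732-7445821 for Mmp3, chr9:7502252-7502341 for Mmp10, chr9:7272424-7272513 for Mmp13 and chr9:7692000-7692089 for Mmp7, all on the plus strand of GRCm38.p6, because the same 2 motifs, in capitals, recur along the run. A match is a description of the letters and not a site of binding.
Mmp3: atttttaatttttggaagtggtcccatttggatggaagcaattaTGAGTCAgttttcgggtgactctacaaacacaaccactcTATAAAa
Mmp10: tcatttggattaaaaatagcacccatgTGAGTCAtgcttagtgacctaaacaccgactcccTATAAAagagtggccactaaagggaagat
Mmp13: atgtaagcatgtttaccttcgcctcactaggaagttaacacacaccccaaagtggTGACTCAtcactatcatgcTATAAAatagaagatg
Mmp7: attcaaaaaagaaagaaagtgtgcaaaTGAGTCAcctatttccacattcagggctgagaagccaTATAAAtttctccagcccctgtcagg

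Mmp19, a metalloproteinase gene outside the main subclasses, was at 4.43, 4.72 and 3.78 in the coronary artery arrays and 5.57, 5.29 and 5.28 in the superior mesenteric artery arrays. The groups did not overlap, with a difference of -1.07 ± 0.37 (limma adjusted p = 0.183, or 0.0110 without ascending aorta replicate 1). Against descending aorta, at 5.31, 5.21 and 5.05, the coronary artery difference was -0.88 ± 0.37 (limma adjusted p = 0.333, or 0.0367 without ascending aorta replicate 1). Mmp14, which encodes the membrane-type 1 enzyme that cuts collagen at the cell surface and activates the Mmp2 precursor, was at 5.38, 5.69 and 4.92 in the coronary artery arrays and 6.60, 6.07 and 6.26 in the superior mesenteric artery arrays. Its difference was -0.98 ± 0.26 (limma adjusted p = 0.0725), and it passed without ascending aorta replicate 1 or replicate 2 (limma adjusted p = 0.0267 or 0.0382). Descending aorta averaged 5.58 ± 0.10 for Mmp14, -0.72 ± 0.26 from superior mesenteric artery (limma adjusted p = 0.209).

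**Figure D5:**
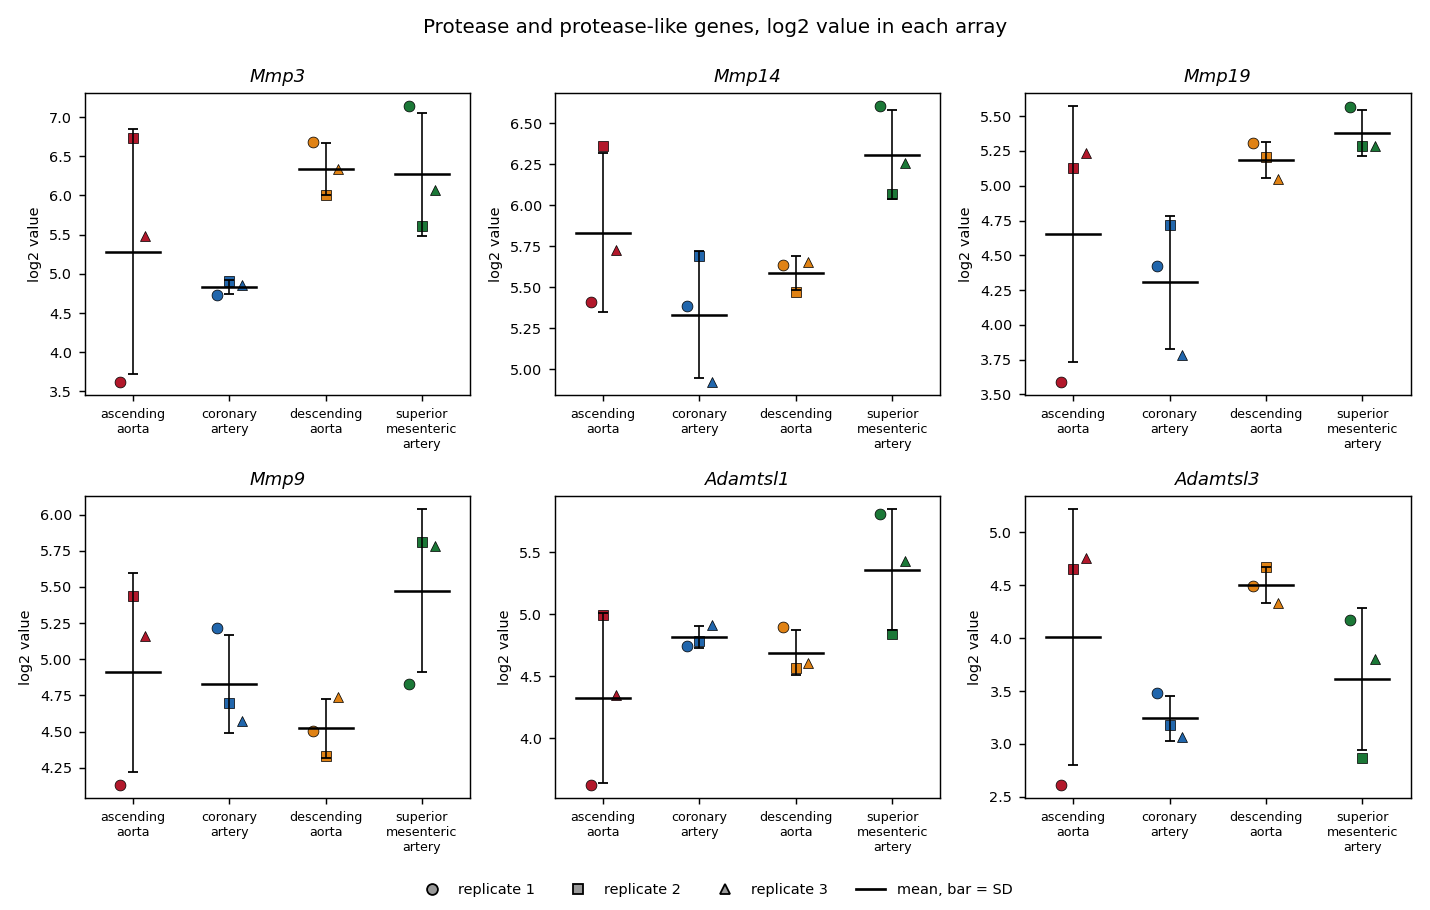
Log2 value (y axis) of Mmp3, Mmp14, Mmp19, Mmp9, Adamtsl1 and Adamtsl3 in each array, by vessel (x axis); symbols mark the replicate number, lines the mean and bars the SD (n = 3). The coronary artery arrays lie below the descending aorta arrays for Mmp3, Mmp19 and Adamtsl3, and ascending aorta replicate 1 is the lowest array for all but Mmp14.

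The gelatinase genes did not pass in any pair. Mmp9, the gene of gelatinase B, which leukocytes also make, was at 4.50, 4.33 and 4.74 in the descending aorta arrays and 4.83, 5.81 and 5.78 in the superior mesenteric artery arrays, a difference of -0.95 ± 0.35 (limma adjusted p = 0.211, or 0.0246 with array weights). The macrophage list, with 6 of 6 genes measured, averaged 5.89 to 6.11 in descending aorta and 5.91, 7.47 and 6.80 in the superior mesenteric artery arrays, in order of replicate, and its part was not tested. Mmp12, the macrophage elastase gene, was at 2.93, 4.73 and 2.55 in the same superior mesenteric artery arrays. Its highest value fell in replicate 2, where the list mean was highest, at 7.47. Its values in replicates 1 and 3 lay below 3.12, where signal above background is not known, so their order is not read. The part of the macrophage list in Mmp12 was not tested. Mmp2 was at 4.75, 7.06 and 7.22 in the ascending aorta arrays and averaged 6.76 ± 0.08 in descending aorta, a difference of -0.42 with all arrays (limma adjusted p = 0.841) and 0.38 without ascending aorta replicate 1 (limma adjusted p = 0.901), so the sign of its difference rests on that array.

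Among the remaining Mmp genes, single arrays stood apart. Mmp16, a membrane-type enzyme gene, was at 3.47, 3.24 and 3.49 in the descending aorta arrays and 5.14, 3.93 and 3.60 in the superior mesenteric artery arrays, which did not overlap (difference -0.82 ± 0.43, limma adjusted p = 0.426). Mmp27 was at 2.77, 4.19 and 4.28 in the coronary artery arrays, against 3.26, 2.78 and 2.88 in the superior mesenteric artery arrays. Its difference of 0.77 did not pass with replicate 1 of the coronary artery (limma adjusted p = 0.298) and was 1.26 without it (limma adjusted p = 0.00874). Against descending aorta the Mmp27 difference was 0.46, or 0.95 without that array (limma adjusted p = 0.675 or 0.0438). Mmp17, which encodes a membrane-type enzyme, averaged 3.36 ± 0.02 in coronary artery and 3.75 ± 0.19 in descending aorta, a difference of -0.40 ± 0.17 (limma adjusted p = 0.346).

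None of the 18 Adamts genes passed in limma's F test, beside 4.72% of all genes, and 0 were under an unadjusted p of 0.05, beside 16.4% of all genes; none passed in any pair. The vessel means of the 7 proteoglycanase genes lay within 0.03 to 0.68 of each other, those of the 2 measured procollagen N-proteinase genes Adamts3 and Adamts14 within 0.38 to 0.42, and those of Adamts7 and Adamts12, whose proteins cut cartilage oligomeric matrix protein, within 0.19 to 0.32. Adamts13, which encodes the von Willebrand factor protease, varied by 0.14. Adamts5, the gene of an aggrecan- and versican-cutting enzyme, was at 4.66, 6.99 and 6.85 in the ascending aorta arrays and 6.60, 6.69 and 6.73 in the descending aorta arrays. Its difference was -0.51 with all arrays and 0.25 without ascending aorta replicate 1 (limma adjusted p = 0.791 and 0.956). Adamts1, its neighbour on chromosome 16 and also a versican-cutting enzyme gene, was at 6.74, 4.30 and 5.33 in the superior mesenteric artery arrays, the same order of arrays as Adamts5 at 7.39, 5.60 and 6.74. The smooth muscle list had that order too, at 9.47, 6.29 and 6.83. So did the endothelial list, at 7.54, 5.64 and 6.61, the cardiomyocyte list, at 5.39, 4.54 and 4.80, and the Schwann cell and nerve list, at 5.72, 5.26 and 5.40. None of the other marker lists had that order. The fibroblast list was at 7.94, 7.67 and 8.13 and the adipocyte list at 7.32, 7.06 and 6.76. An order of 3 arrays can match by accident, so no source is read from it. Across vessels, Adamts5 averaged 6.27 ± 0.24 in coronary artery, where the smooth muscle list was lowest, and 6.67 ± 0.07 in descending aorta. The part of these lists was not tested.

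The Adamtsl genes, whose products are matrix-associated and without protease activity, held the widest differences outside the Mmp and Timp genes. Adamtsl3 was at 2.62, 4.65 and 4.76 in the ascending aorta arrays, 3.48, 3.18 and 3.07 in coronary artery, 4.50, 4.67 and 4.33 in descending aorta and 4.17, 2.87 and 3.80 in superior mesenteric artery. Coronary artery lay below descending aorta in every array (difference -1.26 ± 0.48, limma adjusted p = 0.265, or 0.0167 without ascending aorta replicate 1). Ascending aorta minus coronary artery was 0.77 (limma adjusted p = 0.496) and 1.46 without that array (limma adjusted p = 0.0170). Adamtsl1 was at 3.62, 5.0 and 4.34 in the ascending aorta arrays and 5.81, 4.84 and 5.43 in the superior mesenteric artery arrays, a difference of -1.04 ± 0.32 (limma adjusted p = 0.322), and both of its probe sets had their highest vessel mean in superior mesenteric artery. Adamtsl4 and Adamtsl5 varied among vessel means by 0.34 and 0.08.

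Other genes of pericellular proteolysis were listed beside the family: plasminogen activators and other regulators, Adam proteases, Adamts substrates and cathepsins. Of 44 measured, 2 passed in limma's F test, Plaur and Bsg, beside 4.72% of all genes. Plaur, the urokinase receptor gene, was lower in coronary artery, at 4.54, 4.31 and 4.30, than in superior mesenteric artery, at 5.22, 6.00 and 6.12 (difference -1.40 ± 0.31, limma adjusted p = 0.0268). It was also lower in descending aorta, at 4.45, 4.48 and 4.07, than in superior mesenteric artery (difference -1.45 ± 0.31, limma adjusted p = 0.0230). Plau, the urokinase gene, was lower in coronary artery, at 4.74, 4.56 and 4.70, than in superior mesenteric artery, at 5.84, 5.37 and 5.41 (difference -0.87 ± 0.20, limma adjusted p = 0.0346). Without superior mesenteric artery replicate 2 or 3, any array of the vessel set against it, or the 3 arrays omitted together (replicate 1 of each aorta segment and superior mesenteric artery replicate 3), Plaur did not pass (limma adjusted p between 0.0635 and 0.121), and Plau did not pass without any 1 array of its pair (limma adjusted p between 0.0546 and 0.121) or after renewed quantile normalization (limma adjusted p = 0.0536). The macrophage list means given above were higher in superior mesenteric artery replicates 2 and 3 than in replicate 1, as were the neutrophil, B cell and T cell list means. Plaur was likewise higher in replicates 2 and 3, whereas Plau was highest in replicate 1. Between coronary and superior mesenteric artery all 6 macrophage genes overlapped. The part of these lists was not tested. Bsg, which encodes a cell-surface inducer of metalloproteinases, was lower in ascending aorta, at 8.36, 9.09 and 9.10, than in coronary artery, at 10.16, 9.95 and 10.17 (difference -1.24 ± 0.22, limma adjusted p = 0.00785). Fitted on the 6 arrays of that pair alone, Bsg did not pass (limma adjusted p = 0.0747). The cardiomyocyte list averaged 4.08 to 4.22 in the same ascending aorta arrays and 9.98 to 10.27 in the coronary artery arrays, and its part was not tested. Ctsk, the cathepsin K gene, was lower in coronary artery, at 4.60, 4.15 and 3.93, than in descending aorta, at 5.82, 6.17 and 5.92 (difference -1.74 ± 0.39, limma adjusted p = 0.0309), and did not pass without any 1 array of that pair (limma adjusted p between 0.0545 and 0.143). None of the 11 Adam genes and none of the 9 Adamts substrate genes passed in any of the 6 pairs.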

How the data were processed

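RNA from 4 vessels was measured on 12 arrays; 6 ug of RNA was labelled per the labels' protocols. The authors deposited log2 values of 35556 probe sets; per the submitters' processing notes, RMA and Partek 6.6 are named, with no role or order given. No columns were left unused. The platform annotation gave 1 gene symbol to 21789 probe sets, several to 1621 and none to 12146, and only the first kind was used. The probe set with the highest mean stood for each gene, and 74 probe sets covered the 49 members. In limma 3.58.1 (R 4.3.3), the 12 arrays were fitted together with a separate mean for each vessel (8 residual degrees of freedom, default moderation), and the code was tested on simulated data. Members, lists and tests were chosen with earlier results of these data known. Named genes were those past a threshold, the Timp genes, the top 2 by mean level per role class, the 10 with the smallest F p and the 10 with the widest range of vessel means. Adamts1 and non-overlapping genes outside that rule were named after their values were seen. Adamts2 and Mmp15 were not analysed here. No pair of arrays held identical values (0 pairs). Plots used matplotlib 3.10.9 under Python 3.11.15.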

Additional observations from a re-analysis of the deposited data

How the results depend on the processing

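Timp4 passed limma's F test as deposited and under each of 20 alternatives, which covered normalization (quantile again, or centred medians), a filter that drops the dimmest 25% of genes, averaged probe sets, array weights, a robust variance trend, the replicate block, each array omitted in turn, and 3 arrays omitted together (replicate 1 of each aorta segment and replicate 3 of superior mesenteric artery). Same-numbered replicates did not deviate together (correlations of deviations across genes between -0.25 and 0.09 over 18 pairs of arrays), so numbers were not taken to pair samples. With the replicate number as a block, the F test passed 1 member and the pairing moved no member's call; of the other genes named, Ctsk did not pass (limma adjusted p = 0.0658). With array weights, limma passed 2 members in the F test (9.12% of all genes, against 4.72% as deposited), 1 in ascending aorta minus superior mesenteric artery (2.22%), and 2 each in coronary artery minus descending aorta (5.49%), coronary artery minus superior mesenteric artery (5.66%) and descending aorta minus superior mesenteric artery (6.80%). Without the 3 arrays it passed 2 in the F test (5.86%), 1 in ascending aorta minus coronary artery (3.34%), 1 in ascending aorta minus superior mesenteric artery (1.66%) and 2 in coronary artery minus superior mesenteric artery (3.54%). With the 6 arrays of the pair alone it passed 3 in coronary artery minus descending aorta (6.32%), Mmp3, Adamtsl3 and Timp1. Leaving out single arrays gave 1 to 4 members in the F test, 0 to 0 in ascending minus descending aorta, 0 to 1 in ascending aorta minus coronary artery, 0 to 1 in ascending aorta minus superior mesenteric artery, 0 to 3 in coronary artery minus descending aorta, 1 to 4 in coronary artery minus superior mesenteric artery and 0 to 1 in descending aorta minus superior mesenteric artery. The cause was not tested. With 3 arrays per vessel and no detection calls used here, small differences of dim members could not be resolved.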

Other observations

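Adamts3, a procollagen N-proteinase gene, was read by 16 probe sets, of which 3 had their highest vessel mean in ascending aorta, 7 in coronary artery, 4 in descending aorta and 2 in superior mesenteric artery, so they gave no common order of vessels. Of the 5 probe sets of Adamts17, an ADAMTS protease gene, 4 were highest in coronary artery and 1 in ascending aorta. Their means over the vessels ran from 2.76 to 5.83, and the dimmest may lie at background. All were read on the same arrays. In the probe set used for the gene, the vessel means lay within 0.21 of each other (limma F test adjusted p = 0.912), so no vessel order is read. The 6 probe sets of Adamts9 were highest in ascending aorta in 3 cases, in descending aorta in 1 and in superior mesenteric artery in 2.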
